A study of Homo sapiens with 8 samples.

Results

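The comparison described here asks which transcripts responded to OTX015 differently in HEL92.1.7 cells and in their OTX015 persister-resistant derivative, HEL OTX P/R. HEL92.1.7, called parental below, is an erythroleukaemia line that the labels class as secondary acute myeloid leukaemia, and OTX015 (birabresib) is an inhibitor of the BET bromodomain proteins. Cells of each line were harvested either without drug or following 8 hours of 1000 nM OTX015, with 2 independently treated cultures per group, and all 8 of the 8 libraries of the series enter the comparison. The difference in response is the treated minus untreated change in P/R cells minus the same change in parental cells, on the log2(FPKM + 1) scale, where FPKM (a unit inferred from the values and the tools named, since the table names none) counts sequenced fragments relative to transcript length and library size. A positive difference means that a transcript fell less, or rose more, in P/R cells, and a negative one that it rose less or fell more there. Of 19718 coding genes listed, 11255 were compared, each with 1 FPKM or more in 2 or more libraries. Both lines grew in the same serum-containing medium. HEL OTX P/R is a single derivative of a single parental line. Whether it is 1 clone, and whether its untreated cultures had been in OTX015 shortly before harvest, cannot be read from the labels, so the p-values measure the spread between cultures and not between independently derived resistant lines.

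BET proteins bind acetylated histones and help RNA polymerase II to leave its paused state, with the kinase complex P-TEFb as their partner. A BET inhibitor displaces them from chromatin, and transcripts that depend on strong enhancers, often those that define a cell lineage, tend to fall first. HEL cells carry both erythroid and megakaryocytic programmes, so their lineage transcripts include haemoglobins on one side and platelet surface receptors on the other. Platelets adhere to a damaged vessel through the glycoprotein Ib complex, which binds von Willebrand factor, and are activated through glycoprotein VI, the collagen receptor, whose signal runs through the adaptor LAT.

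The responses of the lines were alike for most genes, and 9 of 11255 genes (0.0800%) passed the test of the difference (limma, Benjamini-Hochberg adjusted p under 0.05). Of these, 7 genes (0.0622% of those tested) were higher in the response of P/R cells: GP6, CSF1, NR5A1, GP1BA, LAT, TRIM15 and DMTN, all of which OTX015 lowered in both lines and lowered less in P/R cells. Another 2 genes (0.0178%) were lower: MARCKSL1, which rose less in P/R cells, and HDC, which fell in P/R cells and did not pass the test in parental cells. In 8 of the 9 genes the response was smaller in P/R cells, HDC being the exception. Without adjustment, 1080 genes (9.60%) had p under 0.05 in limma. Leaving out each of the 8 libraries in turn left between 0 and 8 genes called, so the count depends on which libraries enter. The count was 0 without P/R untreated replicate 2, where 875 genes had an unadjusted p under 0.05 (limma). In bulk libraries such as these, a response in fewer cells and a smaller response per cell cannot be told apart.

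**Figure D1:**
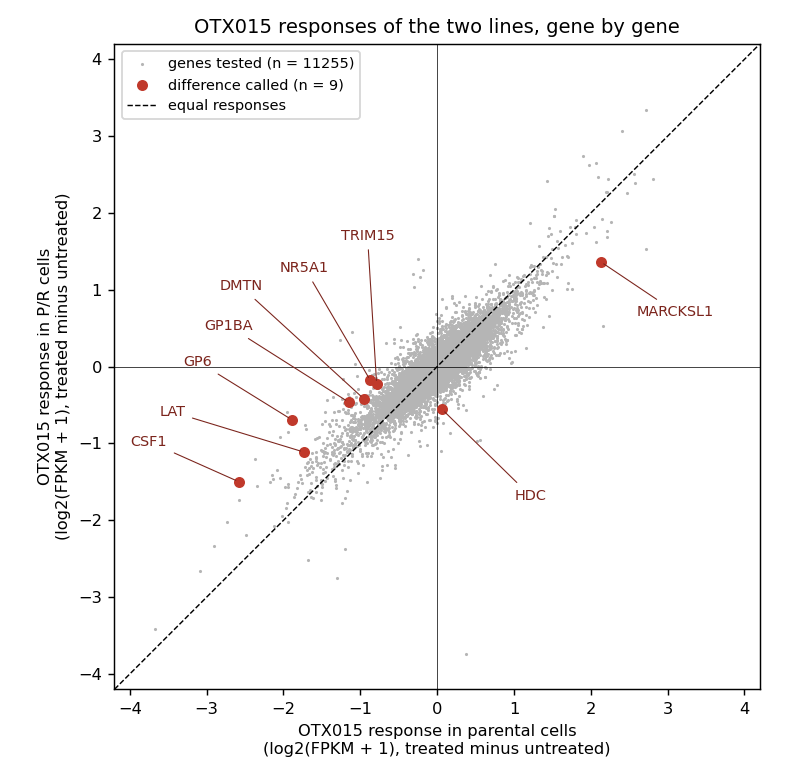
Each point is a gene, with its OTX015 response in parental cells on the horizontal axis and in P/R cells on the vertical axis, both as treated minus untreated on the log2(FPKM + 1) scale, and the dashed line marks equal responses. The 9 genes called in the difference are red: 7 lie above the line on the left, where both lines fell, and MARCKSL1 and HDC lie below it. The grey point far below the rest is GAGE12B, whose P/R untreated libraries read 4.74 and 30.3 FPKM and whose difference of -4.11 did not pass (adjusted p = 0.223, limma).

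Promoter sequences are printed for GP6 and MARCKSL1, the genes called under most settings, and for LAT, the adaptor downstream of the GP6 receptor. They run from 250 bases before to 50 bases after the transcription start, 5′ to 3′ on the strand of the gene, from RefSeq on GRCh38.p14. GP6 is on the minus strand at chr19:55038215-55038514, MARCKSL1 on the minus strand at chr1:32336184-32336483 and LAT on the plus strand at chr16:28984553-28984852. Capitals mark the GATA motif (AGATAA) in GP6 and the AP-1 motif TGACTCA, found as its reverse complement, in LAT.
GP6: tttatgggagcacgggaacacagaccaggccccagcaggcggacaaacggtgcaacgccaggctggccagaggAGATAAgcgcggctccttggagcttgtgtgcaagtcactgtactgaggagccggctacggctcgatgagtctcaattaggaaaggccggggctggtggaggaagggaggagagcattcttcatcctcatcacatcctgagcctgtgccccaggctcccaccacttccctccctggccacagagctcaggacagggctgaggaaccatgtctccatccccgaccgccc
MARCKSL1: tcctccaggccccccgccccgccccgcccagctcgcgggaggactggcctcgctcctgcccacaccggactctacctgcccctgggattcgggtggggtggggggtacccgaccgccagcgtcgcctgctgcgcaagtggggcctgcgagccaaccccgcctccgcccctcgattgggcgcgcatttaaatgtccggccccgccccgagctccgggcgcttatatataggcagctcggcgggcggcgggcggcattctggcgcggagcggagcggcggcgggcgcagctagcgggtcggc
LAT: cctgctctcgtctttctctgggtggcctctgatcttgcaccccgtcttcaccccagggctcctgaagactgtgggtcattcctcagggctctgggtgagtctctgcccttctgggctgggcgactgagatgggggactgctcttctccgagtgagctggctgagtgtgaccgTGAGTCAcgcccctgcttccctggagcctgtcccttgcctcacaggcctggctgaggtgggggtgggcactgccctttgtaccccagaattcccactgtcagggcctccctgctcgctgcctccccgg
Both strands were searched for 7 motifs, of which GATA and AP-1 are spelled out above. The E-box, which MYC and its relatives bind, was searched as CACGTG. For β-catenin's partners of the TCF/LEF family the letters were ATCAAAG. An ETS family core was searched as CCGGAAG. For the STAT factors the letters were TTCNNNGAA, where N is any base. The cyclic AMP response element was searched as TGACGTCA. No match overlapped another. Over the 27305 promoters of the RefSeq table, the GATA letters occur in 10.5% and the AP-1 letters in 4.92%, and the MARCKSL1 window holds none of the 7. The windows of NR5A1 and TRIM15 hold the E-box and the STAT motif, which occur in 7.43% and 7.88% of promoters, and that of HDC holds none. A match is a run of letters and not a measured binding site. Promoters were matched for 8679 of the 11255 genes tested (77.1%) and for 6 of the 9 called, so a comparison of motif shares between called and other genes is void.

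Among receptors, GP6 had the largest called difference. GP6 encodes glycoprotein VI, the collagen receptor of platelets. In parental cells it read 25.3 and 25.2 FPKM untreated and 6.27 and 5.89 FPKM under OTX015, and in P/R cells 48.6 and 46.9 FPKM untreated and 30.5 and 27.9 FPKM under OTX015. No library of P/R cells under OTX015 was below an untreated parental library, so the drug left GP6 in P/R cells above the level at which parental cells started. OTX015 left 24.1% of the untreated mean in parental cells and 61.2% in P/R cells, and the P/R level was 1.89 times the parental level untreated and 4.81 times under OTX015. The difference in response was 1.20 ± 0.0963 on the log2 scale (SE, 95% interval 0.98 to 1.42, limma adjusted p = 0.00412). Counted in FPKM, the fall was nearly the same in both lines, 19.2 FPKM in parental and 18.5 FPKM in P/R cells, so the difference is one of proportion. It stayed under the threshold in 7 of 8 leave-outs, the exception being the fit without P/R untreated replicate 2 (adjusted p = 0.05004, limma).

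GP1BA encodes the chain of the glycoprotein Ib complex that binds von Willebrand factor. Parental cells read 31.3 and 29.9 FPKM untreated and 12.6 and 13.9 FPKM under OTX015, while P/R cells read 67.7 and 70.7 FPKM untreated and 51.1 and 48.8 FPKM under OTX015. As with GP6, each P/R library under OTX015 stood above each untreated parental library. The treated level was 43.3% of untreated in parental and 72.2% in P/R cells, a difference of 0.69 ± 0.0918 (SE, limma adjusted p = 0.0478). GP1BA is the 1 called gene in which the log2 and FPKM differences have opposite signs, with falls of 17.4 FPKM in parental and 19.3 FPKM in P/R cells. Its call was lost in each of the 8 leave-outs. In the GENCODE v29 annotation its exons overlap those of CHRNE, a gene of an acetylcholine receptor subunit on the opposite strand. CHRNE read between 1.79 and 5.08 FPKM over the 8 libraries, below GP1BA in each, and the labels do not say whether counting used strand.

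LAT, the membrane adaptor that carries signals from glycoprotein VI in platelets and from the antigen receptor in T cells, differed little between the untreated lines. It read 237 and 228 FPKM in untreated parental and 254 FPKM in both untreated P/R libraries, 1.09 times the parental level, which did not pass (adjusted p = 0.147, limma). Under OTX015 it read 69.2 and 68.8 FPKM in parental and 125 and 109.8 FPKM in P/R cells. The treated P/R libraries lay between the treated and the untreated parental ones, without overlap. The level left was 29.7% of untreated in parental and 46.2% in P/R cells, a difference of 0.62 ± 0.083 (SE, limma adjusted p = 0.0478). Of the 8 leave-outs, only that of P/R OTX015 replicate 2 kept the call of LAT. GP6 and LAT also share exonic sequence with noncoding transcripts in the annotation, and the share of reads from those was not tested.

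GP6, GP1BA and LAT stood in a list of megakaryocyte and platelet genes of which 30 were tested, and no other member was called. Over all genes tested 0.0800% were called, and the list was chosen with earlier results of these data known. OTX015 lowered 22 of the 30 in parental cells and 18 in P/R cells, and raised 4 in each, against 50.4% of all genes tested that changed in parental cells and 44.2% in P/R cells. The response difference was positive for 18 and negative for 12 members, with a median of 0.07 beside 0.0026 over all genes. GP9, which encodes another subunit of the glycoprotein Ib complex, read 109 and 105 FPKM untreated and 36.99 and 39.4 FPKM treated in parental cells, and 245 and 274 FPKM untreated and 136 and 114 FPKM treated in P/R cells. Its difference of 0.41 did not pass (interval 0.14 to 0.68, limma adjusted p = 0.324). The other subunits gave 0.31 for GP1BB (adjusted p = 0.538, limma) and -0.44 for GP5 (adjusted p = 0.394, limma), so the 4 genes of that complex did not share a sign. TUBB1, the platelet tubulin, gave 0.48 (adjusted p = 0.262, limma). ITGA2B, which encodes the integrin that binds fibrinogen, passed the test in neither line and gave 0.12. Members that fell by like amounts include SELP, the P-selectin gene, with -1.50 in parental and -1.56 in P/R cells, and PLEK, the gene of pleckstrin, with -1.21 and -1.23. ANGPT1, the angiopoietin gene, had the lowest difference of the list.

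**Figure D2:**
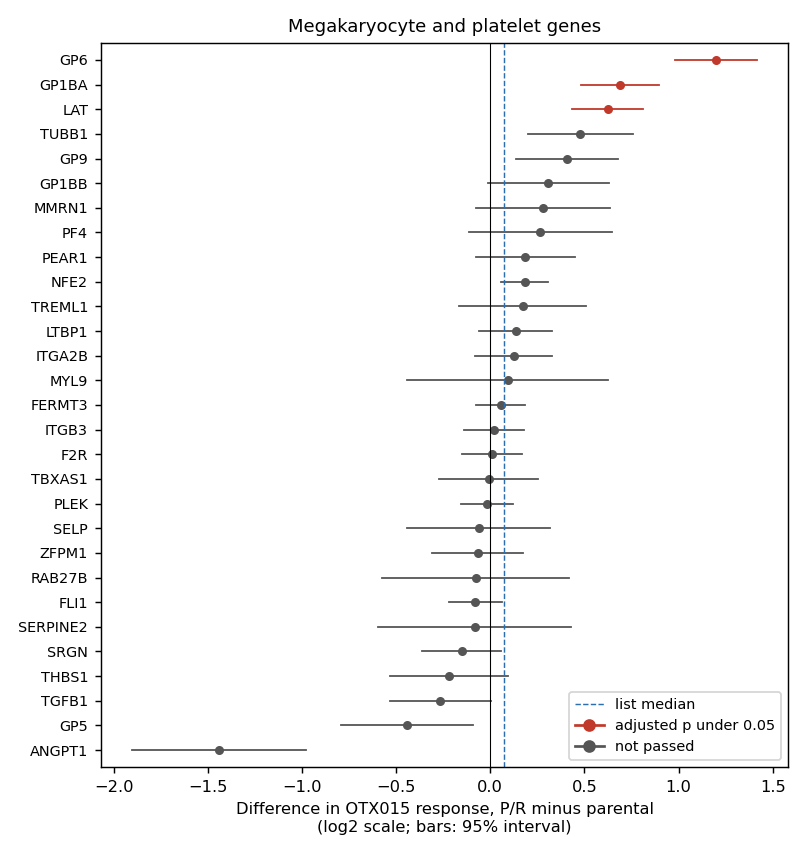
Each point is a tested megakaryocyte or platelet gene (1 of the 30 is not drawn), with its difference in OTX015 response (P/R minus parental, log2 scale) on the horizontal axis and bars for the 95% interval. The dashed line marks the median of 0.07 over all 30, and red marks adjusted p under 0.05: GP6, GP1BA and LAT lie to the right, while ANGPT1 at -1.44 lies farthest to the left and was not called.

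The remaining transcripts that fell less in P/R cells have other roles. DMTN encodes dematin, which ties actin to the red cell membrane. It read 100.3 and 98.9 FPKM in untreated parental cells and 50.9 and 50.6 FPKM under OTX015, against 128 and 129.9 FPKM untreated and 99.1 and 93.5 FPKM treated in P/R cells. Treated P/R cells were thus close to the level of untreated parental cells. The difference was 0.54 ± 0.0657 (SE, limma adjusted p = 0.0424), and it was kept only without P/R OTX015 replicate 2 among the 8 leave-outs. The erythroid list, which does not hold DMTN, had no called gene among 44 tested, beside 0.0800% of all genes tested. Of the 44, 31 had a positive difference, and the median was 0.05. The extremes of that list were HEMGN at 0.45 (adjusted p = 0.330, limma) and the globin gene HBD at -0.30.

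NR5A1 encodes steroidogenic factor 1, a nuclear receptor best known from adrenal and gonadal cells. It read 59.4 and 59.1 FPKM in untreated parental cells and 63.8 and 63.6 FPKM in untreated P/R cells, a line difference that did not pass (adjusted p = 0.208, limma). Under OTX015 it read 33.1 and 30.9 FPKM in parental and 57.4 and 54.9 FPKM in P/R cells. The drug thus left 54.0% of the level in parental cells and 88.1% in P/R cells, the latter still a called fall, and the difference was 0.69 ± 0.0761 (SE, limma adjusted p = 0.0260). Among the leave-outs, NR5A1 was called only without parental OTX015 replicate 1 or P/R OTX015 replicate 2.

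TRIM15, a member of the tripartite motif family, read 35.5 and 36.3 FPKM in untreated and 20.7 and 20.1 FPKM in treated parental cells. In P/R cells it read 44.8 and 45.2 FPKM untreated and 38.9 and 37.8 FPKM treated, so treated P/R libraries exceeded even the untreated parental ones. The level left was 56.8% in parental and 85.2% in P/R cells, a difference of 0.56 ± 0.0765 (SE, limma adjusted p = 0.0478). Its call was lost in each of the 8 leave-outs.

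CSF1, the gene of macrophage colony-stimulating factor, differed between the lines in a way opposite to the genes above. Untreated, it was higher in parental cells, at 15.9 and 15.1 FPKM against 8.28 and 8.29 FPKM in P/R cells (adjusted p = 0.000436, limma). Under OTX015 it read 1.61 and 1.92 FPKM in parental and 2.50 and 2.08 FPKM in P/R cells, a difference that did not pass (adjusted p = 0.116, limma). The P/R level was 0.534 times the parental level untreated and 1.30 times under OTX015, with 11.4% of the level left in parental and 27.6% in P/R cells. The difference was 1.08 ± 0.146 (SE, interval 0.75 to 1.41, limma adjusted p = 0.0478), from levels where the added 1 FPKM weighs on the scale. Its call was lost in each of the 8 leave-outs. Among 18 tested genes of the NF-kB list, to which CSF1 belongs, it was the only one called, and 9 had a positive and 9 a negative difference. IL1B, the interleukin-1 beta gene, fell in both lines, by 3.68 in parental and 3.41 in P/R cells, with a difference of 0.26 (interval -0.67 to 1.19). TNF gave 0.61 and did not pass (adjusted p = 0.172, limma). The genes of the NF-kB subunits, NFKB1, NFKB2 and RELA, had differences of -0.01, -0.002 and -0.04.

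MARCKSL1 was the called gene that rose in both lines. It encodes a membrane protein of the MARCKS family, which binds actin and calmodulin. Parental cells read 41.4 and 41.6 FPKM untreated and 180.0 and 189.7 FPKM under OTX015, while P/R cells read 60.4 and 60.8 FPKM untreated and 160.0 and 155 FPKM under OTX015. The order of the lines was reversed by treatment: P/R cells had more untreated and less under OTX015, in each case without overlap. The rise was 4.46-fold in parental and 2.60-fold in P/R cells, and the difference was -0.76 ± 0.065 (SE, interval -0.91 to -0.62, limma adjusted p = 0.00412). In FPKM the rise was 143 in parental and 97.0 in P/R cells. The call was kept in 7 of 8 leave-outs and lost without P/R untreated replicate 2 (adjusted p = 0.05004, limma). No other member of a cytoskeleton and adhesion list of 31 tested genes was called, and the median there was 0.003. CD44, the hyaluronan receptor, gave -0.53 (adjusted p = 0.343, limma), and ITGA5, a fibronectin receptor subunit, 0.38 (adjusted p = 0.501, limma).

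HDC, which encodes the histidine decarboxylase that makes histamine, was the called gene changed in P/R cells only. Parental cells read 425 and 380.4 FPKM untreated and 411 and 430.2 FPKM under OTX015, so the treated libraries lay within or beside the untreated range. P/R cells read 263 and 247 FPKM untreated and 171 and 175 FPKM under OTX015, each treated library below each untreated one. The response was 0.06 in parental cells (adjusted p = 0.380, limma) and -0.56 in P/R cells. The difference was -0.62 ± 0.0812 (SE, interval -0.80 to -0.44, limma adjusted p = 0.0478), and among the leave-outs it was called only without parental untreated replicate 1. None of the other 9 tested mast cell and basophil genes was called. FCER1A, the alpha chain of the IgE receptor, fell by 1.66 in parental and 1.60 in P/R cells, with a difference of 0.05 (interval -0.17 to 0.27). CPA3, the mast cell carboxypeptidase, and SIGLEC6 gave 0.66 and 0.75 and did not pass (adjusted p = 0.349 and 0.350, limma). The 15 listed mast cell and basophil genes, HDC among them, summed to 835 to 908 FPKM over the parental libraries. In P/R cells the sum was 654 to 676 FPKM untreated and 509.7 to 521 FPKM treated, with CMA1 and CLC at 0 throughout. FCER1A and GATA2 also weigh in that sum. FCER1A went from 132 and 139 to 45.2 and 39.6 FPKM in parental cells, and from 132 and 133 to 44.7 and 41.3 FPKM in P/R cells. GATA2 went from 296 and 288 to 338 and 374 FPKM in parental cells, and from 271 and 262 to 297 and 286 FPKM in P/R cells. Smaller members of the sum differed more between the untreated lines. KIT read 11.3 and 13.4 FPKM in parental and 1.97 and 2.22 FPKM in P/R cells. CPA3 read 11.4 and 10.5 FPKM against 1.30 and 1.39 FPKM, and PRG2 20.7 and 16.3 FPKM against 2.80 and 3.91 FPKM. MS4A2, under 1 FPKM in each library, was not lower in untreated P/R cells. The part of the other listed genes in the HDC result was not tested.

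**Figure D3:**
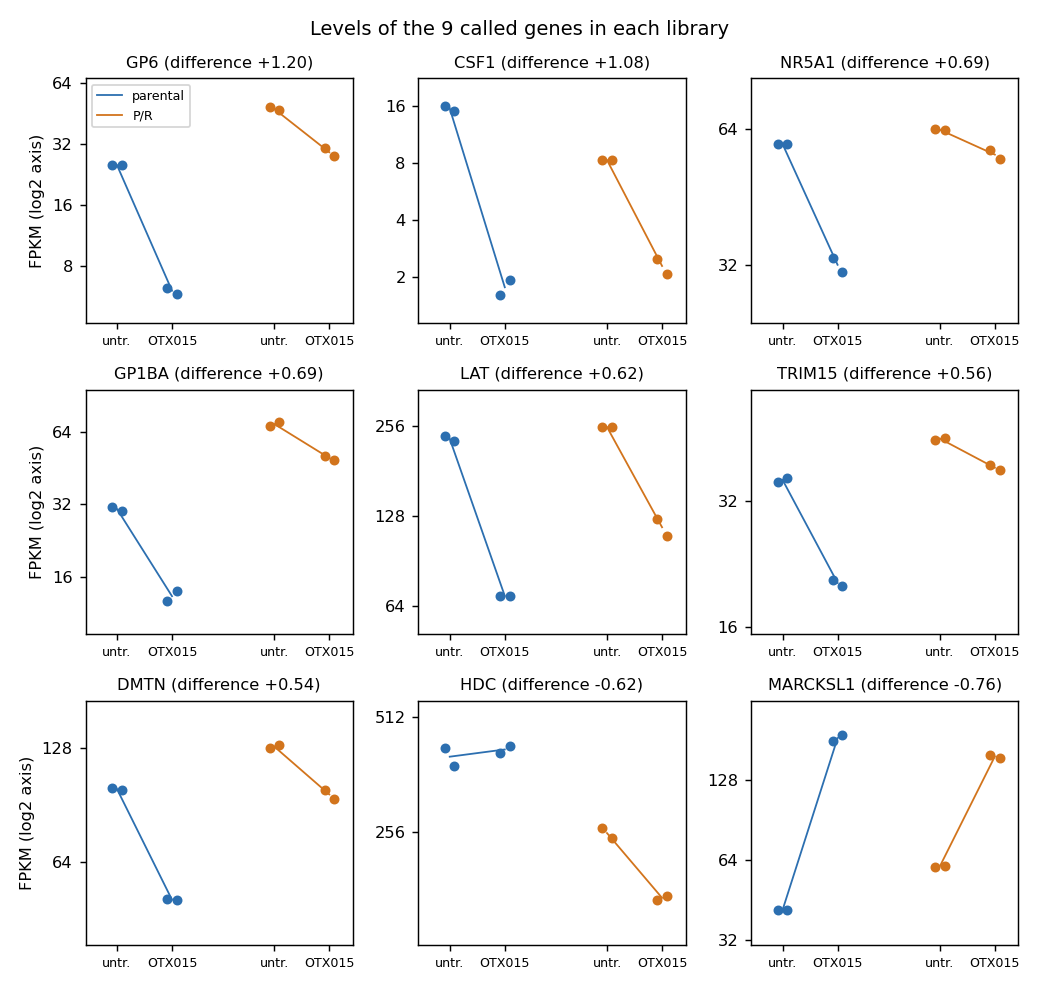
Each panel is a gene called in the difference, with points for single libraries (FPKM, log2 axis), parental in blue and P/R in orange, and lines between the group means. The parental line falls more steeply than the P/R line in 7 panels, rises more steeply for MARCKSL1, and is nearly flat for HDC, at 425 and 380.4 FPKM untreated against 411 and 430.2 FPKM treated.

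Set beside the line differences, with which they share libraries, the 9 genes differed between untreated lines in 7 cases: 6 under both conditions and CSF1 untreated only. NR5A1 and LAT differed between the lines only under OTX015, at 1.75 and 1.70 times the parental level. Over all genes tested, 23.5% differed between the untreated lines and 24.4% between the treated ones. For each of the 9 genes, the range of responses that replicates allow did not overlap between the lines, which held for 23.6% of all genes tested, so it does not set these genes apart.

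Just outside the threshold, with adjusted p of 0.0557 in limma, stood ANGPT1, MT-ND4 and PLEKHA6. ANGPT1, the ligand of the TIE2 receptor, read 1.76 and 1.90 FPKM in untreated parental and 7.52 and 8.53 FPKM in untreated P/R cells. Under OTX015 it read 0.185 and 0.102 FPKM in parental and 0.537 and 0.167 FPKM in P/R cells. Its difference of -1.44 depends on the scale, since the level left was 7.82% in parental and 4.39% in P/R cells. With a pseudocount of 0.1 it was -1.29 (adjusted p = 0.499, limma), and with a pseudocount of 5 it was -0.87 and called (adjusted p = 0.00548, limma). MT-ND4, a mitochondrial gene of respiratory complex I, read 2174 and 2016 FPKM untreated and 2684 FPKM in both treated parental libraries, against 3104 FPKM in both untreated and 2869.6 and 3048 FPKM in treated P/R libraries, a difference of -0.43. Equal values in replicates come from the normalization, which gives genes of equal rank equal values.

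At adjusted p of 0.0766 to 0.0814 followed RDX, ITPR1, TMEM132E, CPPED1, LRRC32 and CTSZ, among others. RDX, the gene of the membrane linker radixin, read 16.9 and 17.0 FPKM untreated and 27.8 and 28.3 FPKM treated in parental cells, against 16.9 and 17.8 FPKM and 19.2 and 18.9 FPKM in P/R cells. ITPR1, the gene of a calcium release channel, showed the same order, with a response of 0.96 in parental and 0.05 in P/R cells. LRRC32 encodes GARP, which holds latent TGF-beta on the surface of platelets and regulatory T cells, and its responses were -1.77 in parental and -1.10 in P/R cells. At a limit of 0.1 on the adjusted p, 19 genes would be called, 13 of them higher in the response of P/R cells.

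Large differences were not the same as called ones. Of 28 genes with a difference of at least 1 in either direction, GP6 and CSF1 were called, and 16 of the 28 reached a group mean of 5 FPKM. PRF1, the perforin gene, read 7.21 and 5.57 FPKM untreated and 0.948 and 0.888 FPKM treated in parental cells, and 1.36 and 1.60 FPKM and 0.449 and 0.303 FPKM in P/R cells. Its difference of 1.09 did not pass (adjusted p = 0.123, limma). WNT5B, which encodes a WNT ligand, read 8.09 and 7.57 FPKM untreated and 0.514 and 0.921 FPKM treated in parental cells, and 1.98 and 2.43 FPKM and 0.556 and 0.244 FPKM in P/R cells, with a difference of 1.17 (adjusted p = 0.150, limma). In both, as in CSF1, the untreated parental cells started higher than the untreated P/R cells, without overlap. SMIM11A and SMIM11B, near-identical copies between which reads may be divided, gave 1.33 and -1.18 and are uncertain.

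How alike the responses were can be read from their calls, since the parental and P/R responses share no library. OTX015 changed 5667 genes in parental cells (50.4%) and 4980 in P/R cells (44.2%). Of these, 4150 were changed in both, which is 73.2% of the parental and 83.3% of the P/R calls, and 4139 of the 4150 moved in the same direction, 2089 up and 2050 down. Another 1517 genes were called in parental cells alone and 830 in P/R cells alone. A call in 1 line alone seldom came with a called difference: none of the 1517 and only HDC of the 830 passed, beside 0.0800% of all genes tested. An unadjusted p under 0.05 (limma) was found for 348 and 173 of them, and for 9.60% of all genes tested. The median absolute difference was 0.19 and 0.18 in these classes, against 0.089 for genes called in both lines. The classes were picked by a call in 1 line and none in the other. That choice by itself favours larger differences and smaller p-values, so these values do not measure how often the responses differed. A missing call of the difference does not show equal responses either.

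In 11 genes the lines were called in opposite directions, and in none of them did the difference pass. All 11 had an unadjusted p under 0.05 (limma), which follows from how they were chosen. Called responses of opposite sign add up in the difference, so this p is no added support for opposite responses. CPPED1, a phosphatase gene, read 15.1 and 16.4 FPKM untreated and 13.1 and 12.9 FPKM treated in parental cells, against 8.19 and 7.67 FPKM untreated and 11.1 and 10.9 FPKM treated in P/R cells. The treated lines lay closer together than the untreated ones. Its difference was 0.68 (adjusted p = 0.0814, limma). TNF, the tumour necrosis factor gene, read 8.38 and 7.38 FPKM untreated and 6.14 and 6.78 FPKM treated in parental cells, against 14.6 and 15.8 FPKM and 19.1 and 20.3 FPKM in P/R cells. UBB, a ubiquitin gene, gave 0.36 (adjusted p = 0.118, limma), and QKI, which encodes an RNA-binding protein, -0.42 (adjusted p = 0.141, limma). The others were ACTR6, MFSD9, WSB1, TMCC2, DDX3X, PLK4 and GTF2A2, with differences between -0.94 for MFSD9 and 0.92 for ACTR6.

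Strong responses were somewhat smaller in P/R cells as a group. Genes were taken by the mean of their responses in both lines, a quantity that does not favour either line. With a mean rise of at least 1 on the log2 scale there were 137 genes, of which 92 (67.2%) rose less in P/R cells, with a median response of 1.34 in parental and 1.19 in P/R cells. With a mean fall of at least 1 there were 234 genes, of which 185 (79.1%) fell less in P/R cells, with medians of -1.35 and -1.16. By treated library, each against the mean of its untreated group, the medians of the falling genes were -1.35 and -1.38 in parental and -1.13 and -1.22 in P/R cells. Those of the rising genes were 1.35 and 1.37 in parental and 1.22 and 1.17 in P/R cells, so these medians did not overlap in either set. Both values of a line share the same untreated mean, so the spread between untreated cultures does not enter them. The median difference was 0.19 for the falling and -0.13 for the rising genes. GP6, LAT and CSF1 are the called members of the falling set and MARCKSL1 of the rising one. No p is given, since the genes are not independent and each group has 2 libraries. For 2 libraries against 2, an exact two-sided permutation test cannot go below p = 0.333.

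The precision set what could be seen. The half-width of the interval had a median of 0.40 for 2958 genes with a mean under 5 FPKM, 0.30 for 3728 genes from 5 to 20 FPKM and 0.20 for 4569 genes above. For 7665 genes (68.1%) the whole interval lay within 0.5 of 0 on the log2 scale, and for 10912 (97.0%) within 1. Among the 4139 genes changed in the same direction in both lines, these were 3204 (77.4%) and 4072 (98.4%). Larger differences than these bounds lie outside the 95% intervals of those genes. A difference smaller than a gene's half-width could not be told from 0. The intervals are not adjusted for the number of genes tested, so a call needed a difference well beyond the half-width. TRIM15, the last gene called, had an unadjusted p of 3.8e-05 (limma). HEXIM1, with an interval of -0.41 to -0.07, was not called.

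Several strong responses were nearly equal in the lines. PIM1, a survival kinase gene downstream of JAK-STAT signalling, read 233 and 222 FPKM untreated and 79.4 and 78.4 FPKM treated in parental cells, against 257 and 240.4 FPKM and 91.9 and 81.3 FPKM in P/R cells. Its response was -1.51 in each line, with a difference of 0.00066 (interval -0.20 to 0.20). SQSTM1, the autophagy receptor p62, rose by 1.03 in each line from a lower level in P/R cells (interval of the difference -0.21 to 0.19). EVI5L, HIST1H2BF and MAFF were the other genes nearest to 0, with wider intervals reaching 0.38 to 0.41 from 0. In all, 269 genes changed by at least 1 in both lines in the same direction, 100 of them up.

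β-Catenin (CTNNB1), TCF7L2, JMJD6 and MYC form the axis that the series is titled after, and none of the 4 genes passed the test of the difference. MYC, the growth-promoting transcription factor, had a difference of -0.03 (interval -0.14 to 0.07, limma adjusted p = 0.874), the narrowest of the 4. It read 501 FPKM in both untreated and 434 FPKM in both treated parental libraries. In P/R cells it read 461 FPKM in both untreated libraries and 386 and 394 FPKM treated. Such equal values come from the normalization, so the narrow interval may understate the spread between cultures. CTNNB1, the β-catenin gene, rose in both lines, with a difference of -0.14 (interval -0.28 to 0.01, limma adjusted p = 0.547). JMJD6, a gene of a hydroxylase and demethylase, fell in both, with a difference of 0.19 (interval -0.03 to 0.40, limma adjusted p = 0.571). TCF7L2, the gene of a partner of β-catenin, read 6.69 and 6.15 FPKM untreated and 5.01 and 5.68 FPKM treated in parental cells, against 7.31 and 8.39 FPKM and 4.63 and 5.22 FPKM in P/R cells. It fell in P/R cells and did not pass in parental cells, and the difference itself was -0.35 (interval -0.69 to -0.01, limma adjusted p = 0.497). HEXIM1, the inhibitor of P-TEFb whose rise serves as a readout of BET inhibition, went from 26.7 and 26.5 to 84.6 and 91.1 FPKM in parental and from 23.2 and 23.0 to 64.3 and 65.0 FPKM in P/R cells. Its rise was 3.30-fold and 2.80-fold, and the difference of -0.24 did not pass (interval -0.41 to -0.07, limma adjusted p = 0.360). None of 23 genes of BET proteins, P-TEFb and its partners was called, beside 0.0800% of all genes tested. Their differences were positive for 8 and negative for 15, with a median of -0.07.

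Histone genes, whose polyadenylated transcripts rise when BET proteins are blocked, lay on both sides of 0 in the difference. OTX015 raised 26 of 27 tested histone genes in parental and all 27 in P/R cells, with 14 positive and 13 negative differences and a median of 0.01. HIST1H2AD read 0.806 and 0.613 FPKM untreated and 9.74 and 10.8 FPKM treated in parental cells, against 4.81 and 3.00 FPKM and 11.5 and 14.6 FPKM in P/R cells. The P/R cells started higher, and the rise was 9.57 FPKM in parental and 9.12 FPKM in P/R cells, so the difference of -1.19 (adjusted p = 0.168, limma) is one of proportion. It was -1.95 with a pseudocount of 0.1 and -0.40 with a pseudocount of 5. HIST1H3H ended higher in P/R cells, from 1.43 and 1.31 to 7.30 and 8.51 FPKM in parental and from 3.37 and 2.22 to 22.7 and 25.8 FPKM in P/R cells, giving 0.84 (adjusted p = 0.223, limma). HIST2H4B gave 0.67 (adjusted p = 0.126, limma). With a pseudocount of 5, the listed members HIST1H3H, HIST2H4A, HIST2H4B and HIST1H2BG were called, and so was HIST1H2AI, which is outside the list. Histone genes have near-identical copies between which reads may be divided, so single members are uncertain, and the labels do not say whether poly(A) RNA was selected.

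**Figure D4:**
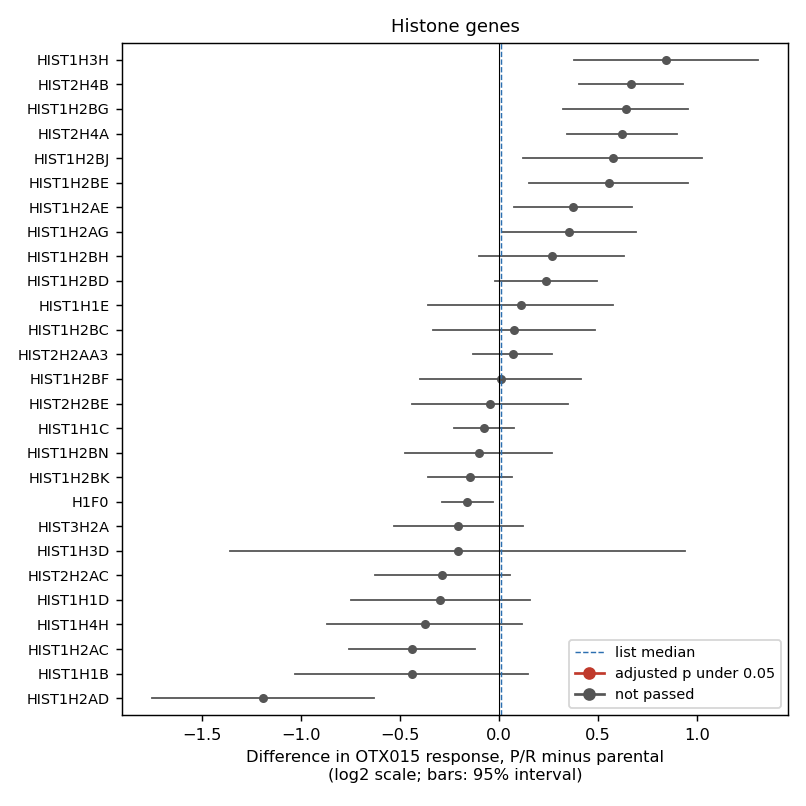
Each point is a tested histone gene, with its difference in OTX015 response (P/R minus parental, log2 scale) and its 95% interval. Members lie on both sides of 0, from HIST1H2AD at -1.19 to HIST1H3H at 0.84, and none was called.

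In 28 of the 32 gene lists no member was called, the exceptions being the platelet, mast cell, NF-kB and cytoskeleton lists above. With 0.0800% of all genes tested called, most lists of this size would hold none, so a list without a call says little about its members. The median difference of 28 lists lay within 0.1 of 0, and 20 of the 32 medians were positive. MYC targets of ribosome assembly and nucleotide supply, 60 genes, had a median of 0.01 and a range from -0.27 for NIP7 to 0.33 for CCND2. Leukaemia genes known to be sensitive to BET inhibitors, 23 tested, had a median of 0.0007. LMO2, the gene of a scaffold of the erythroid and stem cell transcription complex, read 56.2 and 66.1 FPKM untreated and 14.5 and 13.6 FPKM treated in parental cells, and 70.5 and 67.8 FPKM and 26.3 and 23.1 FPKM in P/R cells, a difference of 0.59 that did not pass (adjusted p = 0.172, limma).

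WNT pathway components gave a median of -0.04 over 28 tested genes and WNT targets -0.01 over 11. CTNNBIP1, an inhibitor of β-catenin, rose in both lines, by 1.70 in parental and 1.08 in P/R cells, and its difference of -0.62 did not pass (adjusted p = 0.324, limma). JAK-STAT feedback genes had a median of 0.03 over 22 genes, with CSF2RB, a cytokine receptor chain, at 0.44 (adjusted p = 0.268, limma). Interferon-stimulated genes had 21 positive and 5 negative differences, with a median of 0.08, and TRIM22 was highest at 0.54 (adjusted p = 0.469, limma), or 0.34 without parental untreated replicate 2. The lowest median, -0.10, belonged to the TGF-beta and BMP list, where GDF15, a stress-induced cytokine gene, nevertheless gave 0.59 (adjusted p = 0.298, limma). For mitotic genes the median was 0.002, and ANLN, the anillin gene, was lowest at -0.63 (adjusted p = 0.171, limma). Drug efflux genes had a median of -0.03, and ABCC3, which encodes a multidrug resistance protein, was lowest at -0.74 (adjusted p = 0.150, limma).

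The other lists, none with a called member, are given by their median and by the gene with the largest difference. Survival genes of the BCL2 and IAP families had a median of -0.01 over 15 genes, with XIAP, a caspase inhibitor, at 0.58 (adjusted p = 0.598, limma). The XIAP value was 0.16 without parental OTX015 replicate 1 and 0.99 without parental OTX015 replicate 2. Monocyte and granulocyte genes had 0.04 over 10, with the macrophage gene CD68 at -0.48 (adjusted p = 0.337, limma), and stem and progenitor genes -0.10 over 14, with ANGPT1 again the lowest. Lymphocyte genes had 0.39 over 7, led by PRF1, and epithelial and stromal genes 0.37 over 3, led by the keratin gene KRT8 at 0.43 (adjusted p = 0.272, limma). S phase genes had a median of 0.03 over 42, with the primase subunit PRIM2 at -0.35 (adjusted p = 0.770, limma). Single libraries moved PRIM2 from -0.04 without P/R OTX015 replicate 2 to -0.67 without P/R OTX015 replicate 1. CDK inhibitors and p53 targets had -0.05 over 19, again with GDF15 at the extreme.

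Among stress and metabolic genes, the cholesterol list had a median of 0.02 over 27, with INSIG1, a brake on sterol synthesis, at -0.45 (adjusted p = 0.150, limma). Genes of ATF4 and the unfolded protein response had -0.06 over 32, with SEL1L, which serves protein degradation at the endoplasmic reticulum, at -0.59 (adjusted p = 0.414, limma). Heat shock genes had -0.01 over 18, with HSF2, a heat shock factor, at -0.30 (adjusted p = 0.452, limma). Immediate early genes had 0.0006 over 26, with the phosphatase gene DUSP2 at 0.43 (adjusted p = 0.349, limma). Lysosomal genes had 0.03 over 29, with the cathepsin gene CTSZ at 0.40, and HLA genes -0.01 over 14, with HLA-DPB1 at -0.40 (adjusted p = 0.703, limma). Leave-outs ranged from -0.14 without P/R untreated replicate 1 to -0.67 without P/R untreated replicate 2 for HLA-DPB1, and from -0.38 without parental OTX015 replicate 2 to -0.80 without parental OTX015 replicate 1 for SEL1L. Ribosomal protein genes had 0.02 over 48, with RPS12 at 0.26 (adjusted p = 0.150, limma), and common reference genes 0.02 over 17, with ACTB, the actin gene, at 0.26 (adjusted p = 0.295, limma). ELL3, an elongation factor gene, was the extreme of the BET and P-TEFb list at 0.54 (adjusted p = 0.441, limma).

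All libraries carried the markers of the line. Each of 11 erythroid and megakaryocytic markers reached 1 FPKM, with a summed level of 11435 to 13671 FPKM over the libraries. That sum was mostly the globin genes HBG1 and HBG2 and does not show that the lines were alike in single markers. Untreated, PF4 read 2.66 and 2.00 FPKM in parental and 47.4 and 50.4 FPKM in P/R cells. KLF1 was lower in P/R cells, at 167 and 174 FPKM against 204.5 and 203.6 FPKM, and GATA1 was close, at 341 and 338 against 343 and 327 FPKM. Of 15 lymphocyte genes, 7 reached 1 FPKM, and CD3D, CD3G and MS4A1 were at 0 in all 8 libraries; their summed level was 59.8 to 62.2 and 56.4 to 57.7 FPKM in untreated parental and P/R cells and 32.1 to 33.3 and 30.8 to 32.3 FPKM under OTX015. Of 13 epithelial and stromal genes, 3 reached 1 FPKM, with KRT19 and COL1A2 at 0. The summed level of 442 to 544 FPKM was mostly VIM and hides differences between the lines. Untreated, KRT18 read 16.3 and 13.7 FPKM in parental and 75.6 and 74.4 FPKM in P/R cells. KRT8 read 4.11 and 3.75 FPKM against 16.0 and 15.7 FPKM. VIM went the other way, with 482 and 479 FPKM in parental and 427 FPKM in both P/R libraries. Replicates correlated at r = 0.996 to 0.997 across genes and libraries of different groups at 0.959 to 0.985, where genes are not independent. The values are quantile normalized, so every library sums to 678133 FPKM, the sequencing depth is unknown, and a difference in total RNA between lines or treatments cannot be seen.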

How the data were processed

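RNA-seq libraries of 4 groups with 2 replicates each were grouped by title and treatment label. The deposited table gives no unit; its values are taken as FPKM, from the values and from the tools named (TopHat2 2.0, Cufflinks 2.0, hg19, per the submitters' processing notes), whose settings no label gives. Quantile normalization shows in the deposited FPKM values: sorted libraries differ by at most 0.136% at a mean of 1 FPKM or more. Depth is therefore unknown. For 28 symbols stored as bare numbers, the name was taken through the Ensembl identifier.

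Values were transformed to log2(FPKM + 1), a scale that understates changes of low genes, and 4 group means were fitted in limma 3.58.1 (R 4.3.3) with a variance trend, 4 residual and 5.23 prior degrees of freedom. Tests were two-sided, with Benjamini-Hochberg adjustment over 11255 genes at 0.05. The fit was tested on simulated data. Folds and percentages of untreated are ratios of mean FPKM. Named were the 4 axis genes and HEXIM1, called genes that reached 5 FPKM in a group and whose replicates did not overlap, genes called in opposite directions, up to 4 called members (or else the member with the largest difference) of each list, and the 5 strong shared responses nearest 0; the genes just outside the threshold and other list members were chosen after their values were seen. The members, the lists and the tests were chosen with earlier results of these data known. Alternatives were other pseudocounts, filters, variance models, centring, a replicate block, a minimum difference of 1, and leaving out each library. Values of 1 tested megakaryocyte gene are not reported here; it remains in the list's counts.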

Additional observations from a re-analysis of the deposited data

Results flagged for a closer look

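For 9 genes the OTX015 response differed between the lines by the test of the difference itself (limma, adjusted p under 0.05). Their replicate ranges did not overlap, which held for 23.6% of all genes tested and is no added support. The differences, P/R minus parental on the log2 scale, were 1.20 for GP6, 1.08 for CSF1, 0.69 for NR5A1, 0.69 for GP1BA, 0.62 for LAT, 0.56 for TRIM15, 0.54 for DMTN, -0.62 for HDC and -0.76 for MARCKSL1. GP6 was called in 16 of the 17 alternative settings and MARCKSL1 in 14. NR5A1 was called in 7, DMTN in 6, HDC, LAT and CSF1 in 4 each, and GP1BA and TRIM15 in 3 each. The sign of all 9 differences was the same in all 17 settings. Leave-outs moved GP1BA between 0.62 and 0.75, TRIM15 between 0.54 and 0.58, and CSF1 between 0.99 and 1.17. A fit without 1 library is also less precise, so a lost call need not mean a changed difference.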

How the results depend on the processing

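With 9 genes called (7 higher, 2 lower), most alternatives moved the count. Higher and lower calls numbered 3 and 1 with a pseudocount of 0.1, 18 and 11 with a pseudocount of 5, 3 and 0 without a variance trend, 3 and 1 with robust moderation, and 2 and 0 with a minimum difference of 1. Without a filter on low values, 2 were higher and 2 lower, over 16730 genes tested. Leaving out each library gave 0 to 6 higher and 0 to 2 lower; the lowest values came without P/R untreated replicate 2, where no gene passed in limma and 875 had an unadjusted p under 0.05. In these fits a lone library is assumed to vary like the other groups. All 9 calls were kept with a pseudocount of 5, with a mean of at least 5 FPKM and with median centring.

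The replicate numbers share only a number: deviations of same-numbered libraries from their group means correlated at -0.120 to 0.104 over 6 pairs of groups. With a replicate block, 1 gene was higher and 1 lower, GP6 and MARCKSL1. OTX015 changed 486 genes in parental and 314 in P/R cells with a minimum change of 1, and 4344 to 5738 and 3623 to 5012 when each library was left out. For 65 named genes there were 1088 values: 959 kept their sign and their side of the threshold, 92 lost the call and 13 gained it. The other 24 changed sign without passing, all in PIM1, EVI5L, SQSTM1, HIST1H2BF and MAFF, which were named for being nearest 0 and ranged from -0.20 to 0.13. The unknown depth leaves no counting error to be given.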
